A study of Mus musculus with 12 samples.

Results

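The dual-specificity MAP kinase phosphatases described here are 10 genes, Dusp1, Dusp3, Dusp4, Dusp5, Dusp6, Dusp7, Dusp8, Dusp10, Dusp16 and Dusp26. They were chosen by name, and every gene probe carrying a member's name in the array annotation was taken. Of the 10 genes, 9 had at least 1 probe, with 13 of the 41174 gene probes in all. Dusp5, a nuclear phosphatase of ERK, had no probe under its name, so its RNA level was not analysed here. Dusp8 had 3 probes, Dusp4 and Dusp16 had 2 each, and the other 6 genes had 1 each. RNA of quadriceps muscle was measured on 12 one-colour Agilent arrays, and the titles name 1 mouse for each array. All mice were C57BL/6J males aged 13 weeks, of which 6 ran on a motorised treadmill for 4 weeks and 6 stayed sedentary. Muscle was taken 3 hours after the last bout, and the labels give no time of day. No trained mouse was sampled at rest, so what the final run did and what the weeks of training did cannot be told apart.

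MAP kinases such as ERK, JNK and p38 are switched on when a kinase phosphorylates a threonine and a tyrosine in their activation loop. Dual-specificity MAP kinase phosphatases remove both phosphates and switch the kinase off. Members differ in which kinase they prefer and in whether they act in the nucleus or the cytoplasm, and several are themselves transcribed in response to MAP kinase activity, which makes them part of a negative feedback loop. In skeletal muscle, contraction activates ERK, JNK and p38.

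Levels are given as relative levels, the signal of a probe divided by the 75th percentile of all gene probes on the same array. They compare arrays for 1 probe and do not compare 1 probe with another. Differences are exercised minus sedentary on the log2 scale. They were tested with limma over 16528 genes and unnamed probes, with 1 probe a gene (the brightest on average), and called at a Benjamini-Hochberg adjusted p below 0.05. All 9 measured members entered the test, through probes that were well above background on 12 of 12 arrays. In bulk muscle, fewer cells of a type and less RNA per cell cannot be told apart.

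The 75th percentile of the signal was 206 ± 20.1 (SD, n = 6) units of intensity in exercised and 190 ± 24.9 in sedentary muscle, and probes above background numbered 23192 ± 957 and 23045 ± 1187 (two-sided exact permutation p = 0.229 and p = 0.805). All 10 muscle fibre markers were measured, and their summed score, a mean deviation on the log2 scale, ran from -0.21 to 0.08 in exercised and from -0.04 to 0.16 in sedentary muscle. The arrays were spread over 3 slides. Slide 1 carried 1 exercised and 3 sedentary mice, slide 2 carried 3 exercised and 1 sedentary, and slide 3 carried 2 of each. Values within slides and with slide as a block in the fit are therefore given where they bear on a member. The labels do not say whether mice were housed or processed together. The p values measure the spread between these mice, which in the fit without a block also holds any difference between slides.

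Of the 9 measured members, 1 changed. Dusp6, which encodes a cytoplasmic phosphatase selective for ERK, was lower in exercised muscle, and the other 8 did not pass. A change was called in 601 of 16528 genes (3.64%), 304 of them lower (1.84%) and 297 higher (1.8%), so 1 call among 9 genes is read against that background. The median log2 difference was -0.06 over the 9 members and -0.03 over all genes tested, with 5 of 9 members and 9569 of 16528 genes below 0. The groups did not overlap for 1 member, Dusp6, and for 497 of all genes tested (3.01%). With every kept probe fitted by itself, 1 of 12 member probes was called, that of Dusp6 (lower, limma adjusted p = 0.0433), beside 759 of 22919 probes (3.31%), of which 345 were lower (1.51%).

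**Figure D1:**
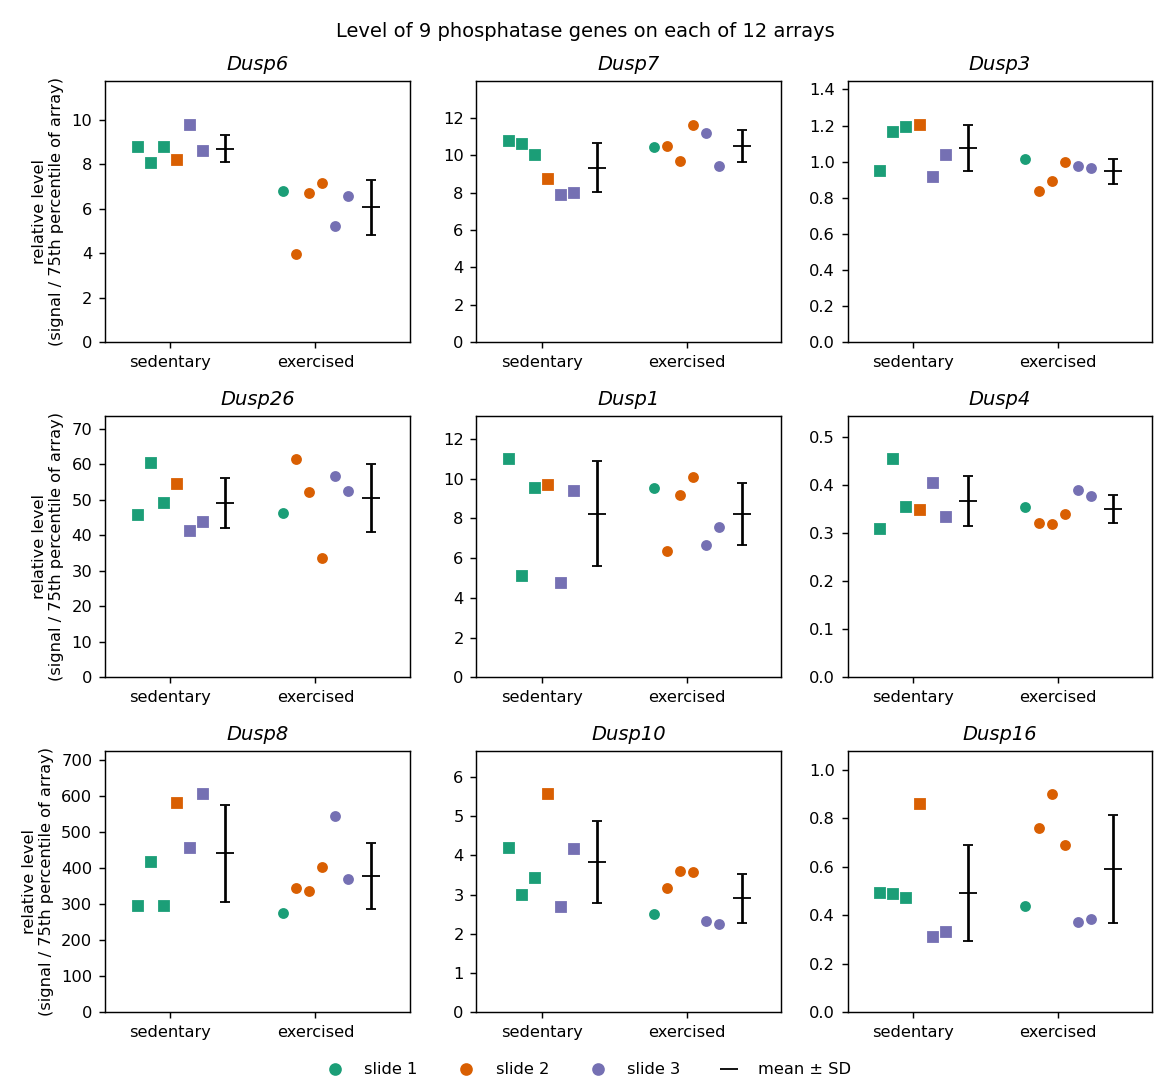
Relative level (signal divided by the array's 75th percentile) of 9 phosphatase genes on each of 12 arrays, with squares for sedentary, circles for exercised, colour for the slide, and the group mean ± SD at the right of each group. The 6 exercised arrays lie between 3.96 and 7.15 for Dusp6, all below the sedentary arrays at 8.07 to 9.79, and the groups overlap for the other 8 genes.

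Dusp6 and its closest relative among the members, Dusp7, both encode cytoplasmic phosphatases that prefer ERK. In exercised muscle the relative level of Dusp6 was 3.96 at the lowest, 6.66 at the median and 7.15 at the highest array. In sedentary muscle it was 8.07, 8.71 and 9.79. Every exercised array was lower than every sedentary array, and the lowest, exercised s2m1 (mouse 1 of the set titled 2), stood below the other 5 exercised arrays, which began at 5.23. The means were 6.08 ± 1.23 (SD, n = 6) and 8.71 ± 0.609 (SD, n = 6), a log2 difference of -0.55 (SE 0.133, 95% interval -0.83 to -0.26, limma adjusted p = 0.0415). This is 1.46-fold lower, with an interval from 1.20 to 1.78-fold.

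Because the groups did not overlap, the same order on each slide follows and is no further support. On slide 1 Dusp6 was 6.81 on the exercised array and 8.07 to 8.79 on the sedentary ones, on slide 2 it was 3.96 to 7.15 and 8.20, and on slide 3 it was 5.23 to 6.60 and 8.62 to 9.79. The log2 differences within slides 1, 2 and 3 were -0.33, -0.51 and -0.64, and in the sets titled 1 and 2, whose meaning is not stated, they were -0.60 and -0.50. The sign below 0 in all slides and sets also follows from the lack of overlap. The call of Dusp6 sat close to the threshold. With slide as a block the difference was -0.51 and the call was lost (limma adjusted p = 0.140, range over the 35 alternatives 0.0189 to 1.00). When 1 array at a time was left out, the call held in 3 of 12 fits, those without exercised s2m1, s2m4 or s2m5, and it was lost in the other 9, where the adjusted p reached 0.0826. Without exercised s2m1 the difference was -0.43 (adjusted p = 0.0259).

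Scores of vessel cell markers differed between the groups beside Dusp6. The score of 8 endothelial markers, all measured, ran from -0.19 to -0.01 in exercised and from -0.08 to 0.29 in sedentary muscle (two-sided exact permutation p = 0.00649, 0.0487 adjusted over 15 array measures). Of the 8 markers 1 was called in limma, Cldn5, a tight junction gene, at a log2 difference of -0.87. The median of the 8 was -0.16 and the highest 0.02. The score of 4 smooth muscle markers ran from 0.07 to 0.28 in exercised and from -0.47 to 0.02 in sedentary muscle, without overlap (p = 0.00216, the smallest these permutations can give, 0.0325 adjusted). Of these 4 markers 2 were called in limma. The largest difference was that of Cnn1, a contractile gene, at 0.91, and the lowest of the 4 was -0.07. With slide as a block Cnn1 stayed called (limma adjusted p = 0.0248). The other called smooth muscle marker, Myh11 (adjusted p = 0.134), and Cldn5 (adjusted p = 0.0709) were then not called. The permutations of the scores did not take slide into account. With the endothelial score as a covariate the difference of Dusp6 was -0.31 (limma adjusted p = 0.539), and with the smooth muscle score it was -0.33 (adjusted p = 0.836). Both covariates were added after the data had been seen. Over all genes 142 and 21 were called with these covariates, beside 601 without. Because both scores differed between the groups, these fits cannot separate them from training. The tendon and brown adipocyte scores were higher on average in exercised muscle and did not pass after adjustment (exact permutation p = 0.0216 and p = 0.0303, adjusted 0.0812 and 0.0909). The tendon score was 0.40 ± 0.50 against -0.40 ± 0.58, with Tnmd, its marker of largest difference, at 1.11 (SE 0.385, limma adjusted p = 0.153). The brown adipocyte score was 0.74 ± 1.03 against -0.74 ± 0.84, with Ucp1, its marker of largest difference, at 4.35 (SE 1.60, limma adjusted p = 0.180, groups overlapping). Of the 5 tested brown adipocyte markers Ppara was the 1 called (1.16, adjusted p = 0.00214), and Cox8b was at -0.10. Both are named after their values were seen. With the tendon and brown adipocyte scores as covariates the difference of Dusp6 was -0.77 (adjusted p = 0.0189) and -0.38 (adjusted p = 0.310). The Schwann cell score was also higher on average in exercised muscle, at 0.12 ± 0.18 against -0.12 ± 0.10 (exact permutation p = 0.0195, adjusted 0.0812). All 7 of its markers had estimates above 0, and 0 were called in limma. It was not fitted as a covariate.

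The probe of Dusp6 (A_51_P502614) lies on chromosome 10 from 98729985 to 98730044 on build mm9, per the array annotation, and begins at base 2658 of its transcript. The files do not say which exon that is. The RefSeq promoter table (build GRCm38.p6) held 8 of the 10 members. Dusp5 was among them, although it had no probe, and Dusp4 and Dusp26 were not. The windows of 250 bases upstream of the annotated start are shown here: those of Dusp6, the only member called, of Dusp10, described below as lower within each slide, and of Dusp2, a related phosphatase that changed in the opposite direction. Capitals mark every match, on either strand, to the motifs searched. These were the cyclic AMP response element TGACGTCA, its 5-base part TGACG, which lies inside it, the AP-1 site TGACTCA, the E-box CACGTG, the ETS site CCGGAAG, the GC box GGGCGG, the TATA box TATAAA and the CCAAT box. The windows lie at chr10:99262981-99263230 (plus strand), chr1:184034131-184034380 (plus strand) and chr2:127335909-127336158 (plus strand).
Dusp6: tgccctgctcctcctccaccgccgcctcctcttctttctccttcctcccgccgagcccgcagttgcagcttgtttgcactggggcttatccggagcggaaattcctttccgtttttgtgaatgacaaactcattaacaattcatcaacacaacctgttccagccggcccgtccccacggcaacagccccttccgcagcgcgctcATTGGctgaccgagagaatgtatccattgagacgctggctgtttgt
Dusp10: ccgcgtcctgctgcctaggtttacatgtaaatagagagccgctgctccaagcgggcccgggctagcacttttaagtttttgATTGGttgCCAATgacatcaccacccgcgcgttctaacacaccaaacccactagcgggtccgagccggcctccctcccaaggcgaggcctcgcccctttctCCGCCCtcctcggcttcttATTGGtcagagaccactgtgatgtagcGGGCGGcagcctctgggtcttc
Dusp2: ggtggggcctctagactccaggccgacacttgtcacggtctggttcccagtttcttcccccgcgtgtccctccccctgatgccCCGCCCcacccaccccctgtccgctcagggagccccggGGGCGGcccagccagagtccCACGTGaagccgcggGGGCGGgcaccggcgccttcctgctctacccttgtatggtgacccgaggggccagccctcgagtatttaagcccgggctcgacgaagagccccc

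The window of Dusp6 held 1 match, a CCAAT box from 46 to 42 bases before the start, and 56.4% of its bases were G or C. This was the lowest of the 8 member windows, which reached 77.2% for Dusp7, against a median of 52% over all windows. The shares of all windows given here are not matched for G and C. Dusp10 held 3 CCAAT boxes and 2 GC boxes, and Dusp2 held 3 GC boxes and an E-box but no CCAAT box. A CCAAT box occurred in 6 of the 8 member windows and in 34.1% of the 27025 windows of that length in the table, and a GC box in 6 of 8 and in 32.4%. The cyclic AMP response element occurred in 2 of 8, those of Dusp1 and Dusp8, against 1.54% of all windows, and its 5-base part in 4 of 8 against 17.4%. An E-box occurred in the window of Dusp1 (5.89% of all windows). The AP-1 site, the ETS site and the TATA box had no match in these 8 windows, against 4.49%, 7.12% and 13.0% of all windows. These matches are letters in a window and were not measured as binding sites.

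Dusp7 did not pass. Its relative level was 9.40, 10.5 and 11.6 at the lowest, median and highest exercised array, and 7.88, 9.36 and 10.8 in sedentary muscle, so the groups overlapped. The log2 difference was 0.18 (SE 0.0968, 95% interval -0.03 to 0.39, limma adjusted p = 0.414). On slide 2 and slide 3 every exercised array was above every sedentary array, by 0.28 and 0.37 on the log2 scale, while on slide 1 the difference was 0.00. With slide as a block it was 0.23 (95% interval 0.04 to 0.43, adjusted p = 0.241). Dusp6 and Dusp7 therefore had estimates of opposite sign on slides 2 and 3. The difference between the 2 genes was not tested.

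The nuclear, inducible phosphatases Dusp1 and Dusp4 did not pass either. Dusp1, an immediate early gene whose product acts on p38, JNK and ERK, had relative levels from 6.35 through a median of 8.39 to 10.1 in exercised muscle. In sedentary muscle it ran from 4.73 through 9.46 to 11.0. Its means were 8.23 ± 1.57 and 8.23 ± 2.63 (SD, n = 6 each), and the log2 difference was 0.05 (95% interval -0.43 to 0.53, limma adjusted p = 0.947). Sedentary s1m1 (4.73) and s2m2 (5.11) lay below all other arrays, which began at 6.35, and the within-group spread of Dusp1, a residual SD of 0.42 on the log2 scale, was larger than that of 87.4% of genes tested.

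Dusp4 was represented by a probe with relative levels of 0.317 to 0.389 in exercised and 0.308 to 0.452 in sedentary muscle. The log2 difference was -0.06 (95% interval -0.27 to 0.15, limma adjusted p = 0.817), with differences of 0.12 in set 1 and -0.18 in set 2. Its other probe was well above background on 5 of 12 arrays, between 0.0257 and 0.0968, and was not tested.

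Dusp8, Dusp10 and Dusp16 encode phosphatases that prefer JNK and p38. Dusp10 came nearest to a call among them. Its relative level was 2.24, 2.85 and 3.61 at the lowest, median and highest exercised array and 2.69, 3.78 and 5.56 in sedentary muscle. The groups overlapped over all arrays, and the log2 difference of -0.38 did not pass (SE 0.186, 95% interval -0.79 to 0.02, limma adjusted p = 0.336).

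Within slides the arrays of Dusp10 did separate, and the share of all genes that do so was not counted. On slide 1 the exercised array was at 2.52 and the sedentary arrays at 2.98 to 4.20, on slide 2 the exercised arrays were at 3.18 to 3.61 and the sedentary one at 5.56, and on slide 3 they were at 2.24 to 2.32 and 2.69 to 4.15. The log2 differences within slides 1, 2 and 3 were -0.48, -0.69 and -0.55. With slide as a block the difference was -0.57 (95% interval -0.85 to -0.29), and the limma adjusted p was 0.05002, just above the threshold, beside 2.11% of genes called in that fit (0.944% lower). Over its 35 alternatives the estimate of Dusp10 stayed below 0 and was called in 0, with estimates from -1.11 with the smooth muscle score as a covariate to -0.04 with the brown adipocyte score. The differences in sets 1 and 2 were -0.80 and -0.13, and the test of that contrast gave an unadjusted p of 0.0844 in limma (adjusted p = 0.593).

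**Figure D2:**
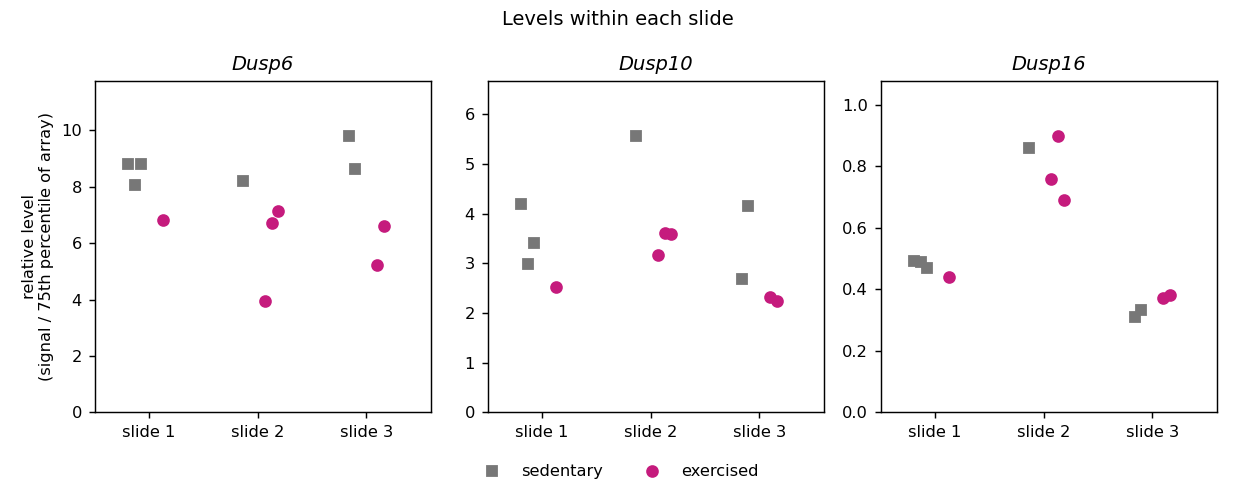
Relative level (signal divided by the array's 75th percentile) of Dusp6, Dusp10 and Dusp16 on each slide, with grey squares for sedentary and pink circles for exercised arrays. Exercised arrays lie below sedentary arrays on each slide for Dusp6 and Dusp10, and Dusp16 lies at 0.691 to 0.898 on slide 2 in both groups against 0.310 to 0.491 on the other slides.

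The level of Dusp16 followed the slide on the probe that stands for the gene. It ran from 0.371 through a median of 0.565 to 0.898 in exercised and from 0.310 through 0.480 to 0.859 in sedentary muscle. On slide 2 the 4 arrays were between 0.691 and 0.898, on slide 1 between 0.440 and 0.491, and on slide 3 between 0.310 and 0.383, without overlap between slides and with both groups on each. The slide term beside training gave F = 61.6 for this probe (limma adjusted p = 0.00147), and such a term was called for 1.15% of 22790 probes. It was called for 1 of the 12 member probes tested, and the smallest adjusted p of the others was 0.115, for Dusp10. The log2 difference of Dusp16 between the groups was 0.26 (95% interval -0.35 to 0.87, adjusted p = 0.725). With slide as a block it was 0.01 (95% interval -0.20 to 0.22), and the percentile of its residual SD among all genes fell from 92.6 to 36.3. Set 1 and set 2 gave -0.43 and 0.67 (limma interaction, adjusted p = 0.570). Set 2 of the exercised mice lay mostly on slide 2, and set and slide overlap. The other probe of Dusp16, well above background on 7 of 12 arrays, was at 0.0355 to 0.0686 and gave a log2 difference of 0.09. Its slide term was not called (F = 2.54, limma adjusted p = 0.513).

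The 3 probes of Dusp8 gave differences of either sign, and none passed. The probe with the highest mean (A_52_P336748) begins at base 34 of the transcript, on chromosome 7 from 149281096 to 149281155 (mm9). Of its bases 86.7% are G or C, at the 100th percentile of all gene probes. Its relative level was 276 to 545 in exercised and 294 to 605 in sedentary muscle, with a log2 difference of -0.19 (95% interval -0.65 to 0.26, limma adjusted p = 0.724). With slide as a block this was -0.38 (95% interval -0.72 to -0.04, adjusted p = 0.290). The other probes begin at bases 2617 and 4515 and gave 0.02 (SE 0.0962, adjusted p = 0.959 over all probes) and -0.15 (SE 0.109, adjusted p = 0.558). Their relative levels over both groups were far lower, at 3.41 to 5.01 and 6.59 to 11.2. The gene-level values of Dusp8 rest on the first probe alone. Sedentary s2m4 was the highest array for 2 of the 3 probes and sedentary s2m2 the lowest for 2 of 3.

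Dusp3 and Dusp26 are small atypical members that lack the kinase-binding domain of the classical MAP kinase phosphatases. Dusp3 was at 0.836 to 1.02 in exercised muscle, with a median of 0.971, and at 0.913 to 1.21 in sedentary muscle, with a median of 1.10. The groups overlapped, and the log2 difference was -0.18 (SE 0.0873, 95% interval -0.37 to 0.01, limma adjusted p = 0.338). It was the least variable member, with a within-group residual SD larger than that of 31.4% of genes. Dusp26 was at 33.7 to 61.4 in exercised and 41.4 to 60.3 in sedentary muscle, and its log2 difference was 0.03 (95% interval -0.28 to 0.33, adjusted p = 0.957). Within slides 1, 2 and 3 it was -0.15, -0.19 and 0.36.

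**Figure D3:**
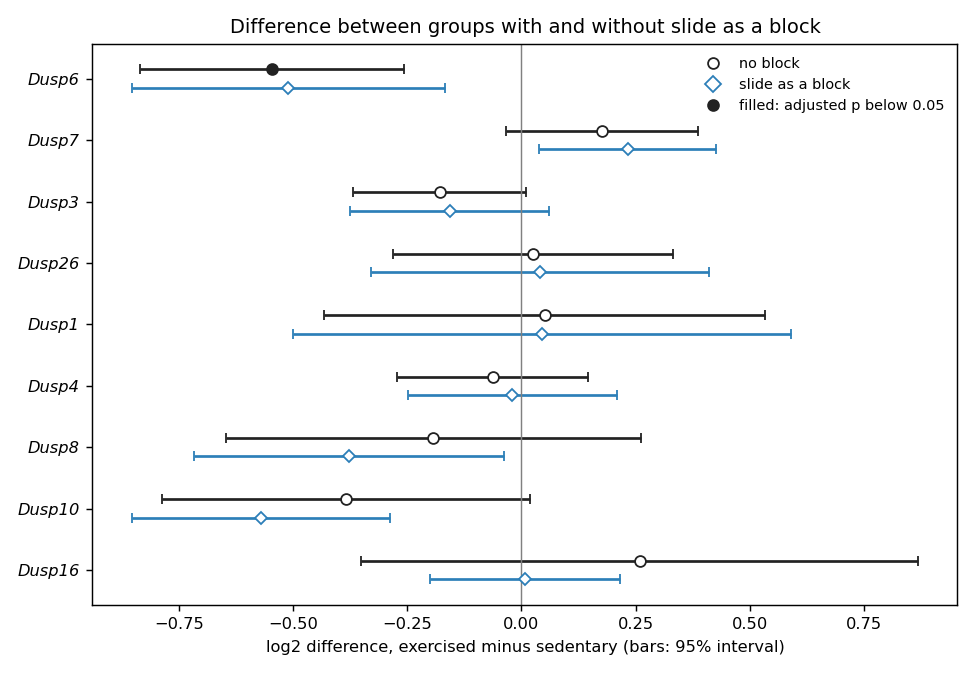
Log2 difference, exercised minus sedentary, of 9 phosphatase genes with 95% intervals from limma, without a block (black circles) and with slide as a block (blue diamonds), filled where the adjusted p is below 0.05. Only Dusp6 without a block is filled, Dusp10 moves from -0.38 to -0.57 with the block and Dusp16 from 0.26 to 0.01.

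With slide as a block 0 of 9 members were called in limma, and 4 were below an unadjusted p of 0.05, beside 348 of 16528 genes called and 2382 below that unadjusted p. Those 4 were Dusp6, Dusp8 and Dusp10, with estimates below 0, and Dusp7, above 0. Dusp8 entered that fit only through its probe rich in G and C. No member differed in its training effect between the title sets in limma, with 0 of 9 at an unadjusted p below 0.05. Over all genes 0 (0%) were called for that contrast and 1445 (8.74%) were below the unadjusted threshold.

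Among 17 other dual-specificity phosphatases tested, 1 rose, 0 fell and 16 did not pass (median log2 difference -0.07). The one that rose was Dusp2, an inducible nuclear phosphatase of ERK and p38. It was at 1.12 to 1.60 in exercised muscle, with a median of 1.20, and at 0.603 to 0.781 in sedentary muscle, with a median of 0.702. The groups did not overlap, and the log2 difference was 0.87 (SE 0.101, 95% interval 0.65 to 1.09, limma adjusted p = 0.000502). With the slide block the adjusted p was 0.00193. Dusp2 was called in 29 of its 35 alternatives, the 12 fits with 1 array left out among them (limma adjusted p from 0.000164 to 1.00 over all 35). It was not called with the smooth muscle score as a covariate (0.69, adjusted p = 0.290), with normexp background correction (0.39) or within slides 1, 2 and 3 (0.74, 0.84 and 0.82), nor among the arrays whose number occurs in both groups (0.85). With the endothelial score it was 0.79 (adjusted p = 0.0416). Of 10 other phosphatases that act on MAP kinases, 0 passed in limma. The smallest p among them was that of Ptprr, a tyrosine phosphatase of ERK, with 0.69 for 1 probe and 0.87 for another (adjusted p = 0.0515 for the first). Ptprr was called in 7 of its 35 alternatives, among them quantile and median scaling (adjusted p from 0.0291 to 1.00 over all of them).

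None of the 11 MAP kinases tested, which these phosphatases oppose, passed in limma, and none of 7 MAP kinase kinases. At a share of 3.64% over all genes, counts of 0 in lists of this size are near the background. The MAP kinases all had an estimate below 0, with a median of -0.14, beside a median of -0.03 and 9569 of 16528 genes below 0 over all genes tested. All 11 were also below 0 with quantile and with median scaling, 10 with slide as a block, and 9, 7 and 10 within slides 1, 2 and 3. Fewer were below 0 with normexp (7), with its limited background (8), and with the tendon (7), endothelial (8), brown adipocyte (9) or smooth muscle (9) score as a covariate. The smallest p was that of Mapk7, which encodes ERK5, at -0.26 (limma adjusted p = 0.0833), and its other probe gave -0.09. Among MAP kinase kinases it was that of Map2k3, an activator of p38, at 0.13 (adjusted p = 0.464).

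Of 18 MAP kinase kinase kinases tested, 1 rose and 0 fell. Map3k6, a relative of the stress-activated kinase ASK1, was at 4.25 to 4.92 in exercised and 0.844 to 1.77 in sedentary muscle. The difference was 1.81 (SE 0.141, 95% interval 1.50 to 2.11, a 3.50-fold rise, limma adjusted p = 4.3e-05, and 0.000242 in the slide-blocked fit), and its other probe gave 1.78. It was called in 31 of 35 alternatives, all but normexp (1.26) and the fits within slides 1, 2 and 3 (1.60, 1.70 and 2.22). Of 10 scaffold genes none passed, with the smallest p for Arrb1, an arrestin, at -0.30 (adjusted p = 0.0731), where another probe gave 0.09. Arrb1 passed in 4 of 35 alternatives (adjusted p 0.0200 to 1.00). Of 10 kinases activated by MAP kinases none passed, and Rps6ka4 had the smallest p, at -0.15 (adjusted p = 0.308).

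Among 20 tested genes of ERK feedback and early ERK targets, 0 rose, 2 fell and 18 did not pass, with a median of -0.00. The estimates ran from -1.36 to 0.97. The lowest was that of Egr1, where the groups overlapped (limma adjusted p = 0.136, and 0.123 in the slide-blocked fit). Just above the threshold lay Fosl2, at 0.97 without overlap of the groups (limma adjusted p = 0.05001, and 0.154 in the slide-blocked fit). Ier2 was at -0.67 (limma adjusted p = 0.0509, and 0.0686 with the block). Elk3, an ETS factor whose activity ERK controls, was at 2.11 to 2.99 in exercised and 3.47 to 4.14 in sedentary muscle, a log2 difference of -0.51 (SE 0.0876, 95% interval -0.70 to -0.32, limma adjusted p = 0.00664, and 0.0190 in the slide-blocked fit). Its other probe gave -0.62. Spry2, a feedback inhibitor of growth factor signalling to ERK, was at 0.838 to 0.967 and 1.05 to 1.41, a difference of -0.41 (SE 0.0795, 95% interval -0.58 to -0.24, adjusted p = 0.0132, and 0.0143 with the block), whereas its other probe gave -0.02 (adjusted p = 0.964 over all probes) and the mean of both -0.22 (adjusted p = 0.265). Elk3 was called in 27 and Spry2 in 25 of 35 alternatives, the 12 fits with 1 array left out among them. With the endothelial score as a covariate their differences were -0.36 (adjusted p = 0.234) for Elk3 and -0.31 (adjusted p = 0.296) for Spry2. With the smooth muscle score they were -0.36 and -0.36 (adjusted p = 0.623 and 0.608).

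**Figure D4:**
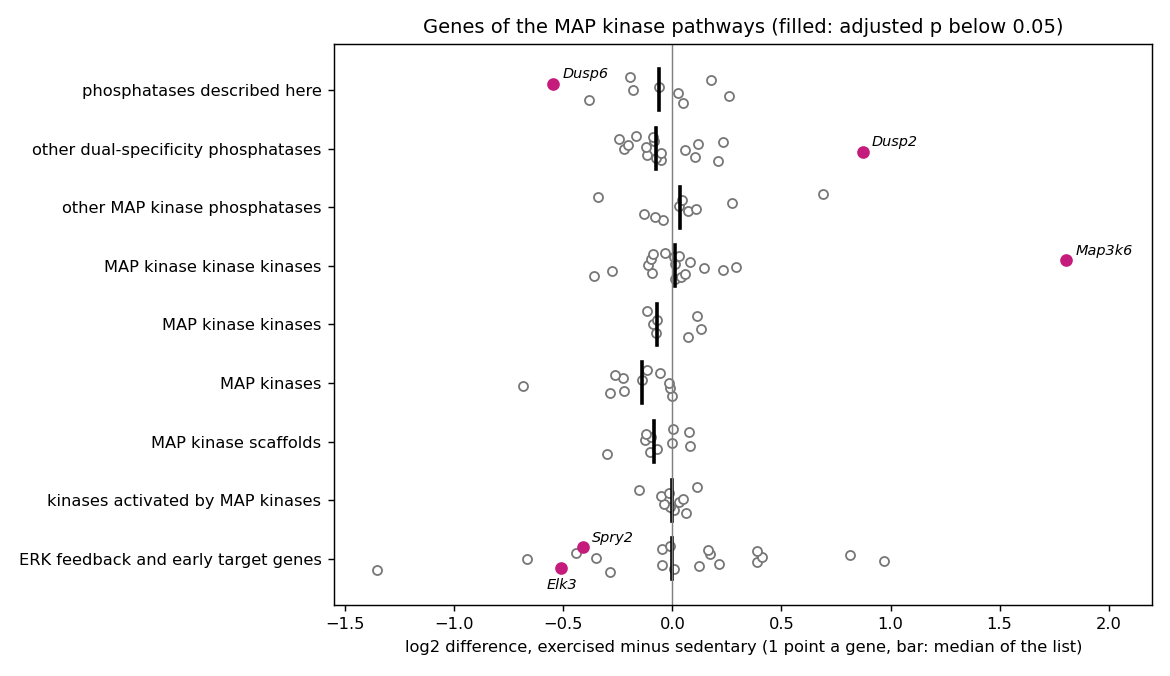
Log2 difference, exercised minus sedentary, of each tested gene in 9 lists of the MAP kinase pathways, with a bar at the median of each list and filled points where the limma adjusted p is below 0.05. Dusp6, Spry2 and Elk3 are filled below 0 and Dusp2 and Map3k6 above 0, and the 11 MAP kinases lie between -0.68 and -0.00.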

How the data were processed

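The deposited values are spot intensity, linear, extracted and background-subtracted by the authors with Agilent Feature Extraction, per the file headers, which name another version than the 9.1 of the submitters' processing notes. No scaling between arrays was found in them. Control spots and spots marked as outliers (42 to 217 an array) were left out, spots of a probe averaged, log2 taken and each array's 75th percentile subtracted. Probes well above background on at least 6 of 12 arrays were kept (22919 of 41174), and the probe with the highest mean stood for its gene. Groups were compared with limma 3.58.1 in R 4.3.3, without a block, adjusting over all genes (Benjamini-Hochberg), and member probes were also fitted over all kept probes. Array measures were compared over all 924 assignments by exact permutation. The fit was also run on simulated data with independent noise for each gene, equal spread in both groups and no slide effect. That run cannot show how the fit behaves with slide differences or unequal spread. The members and lists were chosen with earlier results of these data known. Named are all members and, from each pathway list, the called genes (at most 4) or else the gene with the smallest p. Egr1, Fosl2 and Ier2 are named besides, after their values were seen. Titles that share a set and animal number in both groups are described with the alternatives. The number of arrays limits the precision.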

Additional observations from a re-analysis of the deposited data

Results flagged for a closer look

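A single array stood apart from the other 5 of its group (Dixon's test at the 95% level) in 6 of 54 groups checked, where chance gives about 1 in 20. No member probe was among them. These were marker scores on the log2 scale and the signal of an array. The macrophage score was 0.37 on exercised s2m4 against -0.16 to 0.01 on the others. The neutrophil score, which rests on 1 measured marker, was 6.30 on exercised s2m3 against -3.21 to -0.65, and 3.39 on sedentary s2m2 against -1.25 to 0.48. The tendon score was -1.52 on sedentary s2m2 against -0.49 to 0.05. The fibroblast score was -0.40 on exercised s2m1, which is also the lowest array for Dusp6, against 0.08 to 0.35. The 75th percentile of the signal was 237 units of intensity on sedentary s2m5 against 167 to 191. The part of these arrays in the members' values was not tested beyond leaving out each array.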

How the results depend on the processing

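No member changed sign while called. Dusp6 stayed below 0 in 35 of 35 alternatives and was called in 14, with differences from -0.77 to -0.26. Dusp3 and Dusp10 also stayed below 0 in all 35. The count of called members fell from 1 to 0 with quantile scaling, normexp background correction, no filter on dim probes, slide or title set as a block, within slides 1, 2 and 3, with the replicate block, and with the brown adipocyte, endothelial or smooth muscle score as a covariate. Leaving out each array gave 0 to 1 called members and 421 to 569 called genes. The count of called genes, 601, was 0 with normexp (107 at an unadjusted p below 0.05 in limma), 316 without a filter, 348 with slide as a block, 0, 8 and 0 within slides 1, 2 and 3 (1011, 964 and 2154 unadjusted), 29 with the replicate block, and 294, 250, 142 and 21 with the tendon, brown adipocyte, endothelial and smooth muscle scores. Slides 1 and 2 hold a lone array of 1 group, assumed there to vary like the other group. On 4 arrays normexp left a first percentile of 730 to 2285 units of intensity, against 53.4 to 54.8 on the other 8. With the local background limited to its 99th percentile, chosen after seeing the data, it gave 477 called genes and Dusp6 called (adjusted p = 0.0479). For the other settings the cause was not tested.

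Estimates of 6 uncalled members changed sign in some settings, among them Dusp16, the largest above 0 in the reported fit (0.26). With normexp Dusp8 was 0.0646 and Dusp16 -0.0138. With array weights Dusp1 was -0.0379. Within slide 1 Dusp7 was -0.000401, Dusp16 -0.14 and Dusp26 -0.15, within slide 2 Dusp1 was -0.21, Dusp16 -0.14 and Dusp26 -0.19, and within slide 3 Dusp4 was 0.0607. With the tendon score Dusp1 was -0.25 and Dusp4 0.0341, with the brown adipocyte score Dusp26 was -0.20, with the endothelial score Dusp16 was -0.0745 and Dusp26 -0.37. With the smooth muscle score Dusp1 was -0.68, Dusp4 0.22, Dusp16 -0.62, Dusp26 -0.0372 and Map2k3 -0.0405. One probe of Dusp8 gave 0.0175. Leaving out each array moved Dusp1 between -0.0949 and 0.15, Dusp4 between -0.11 and 0.000690 and Dusp26 between -0.0359 and 0.14.

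The titles give 4 set and animal numbers to a mouse of each group. The correlations of their deviations from the group means were 0.15, -0.19, 0.12 and 0.28 and not every one was above 0.1, so the numbers were not taken to pair the mice. Of the 4 pairs, s1m1 and s2m5 also share a slide. In the paired fit with the replicate block Dusp6 was -0.46 (limma adjusted p = 0.286), Dusp4 0.0205 and Dusp26 -0.0155.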
